A study of Mus musculus with 8 samples.

Results

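The 10 genes described here belong to the antioxidant programme of the transcription factor NRF2 and to the defence against ferroptosis, a form of cell death driven by iron and oxidised lipids. They were found by gene symbol in a table of 54532 genes, where each had 1 row. The groups were 4 livers of METTL3-HKD mice and 4 livers of METTL3-Flox mice. METTL3-HKD mice carried METTL3 flox/- and Alb-iCre, and their littermate controls, METTL3-Flox mice, carried METTL3 flox/flox. METTL3-HKD is a heterozygous knockdown, not a knockout, and because the albumin promoter drives the Cre, recombination is aimed at hepatocytes and not at the other cell types of the liver. The loxP sites flank exon 4 of METTL3. All 8 mice underwent 1 h of partial warm ischemia and 6 h of reperfusion, so no liver without injury entered the comparison. The age of these mice is not given in the sources used here.

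NRF2, encoded by Nfe2l2, is held in the cytosol by KEAP1, which passes it to the CUL3 ubiquitin ligase for degradation. Electrophiles and oxidants modify cysteines of KEAP1, and NRF2 then enters the nucleus, pairs with a small MAF protein and binds antioxidant response elements. Its targets make glutathione, recycle thioredoxin, break down haem and reduce quinones. In the reperfused liver, this programme is known as a main defence against the burst of oxidants that follows the return of oxygen.

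Levels were deposited as FPKM, fragments per kilobase of gene length and per unit of a library size that the authors had already scaled between livers. Each liver had between 15861245 and 18434488 reads on genes, rebuilt from these values. The targeted gene, Mettl3, was at 1.33 ± 0.181 FPKM in the METTL3-HKD group against 1.50 ± 0.282 FPKM in the METTL3-Flox group (SD, n = 4 each). The groups overlapped (exact permutation test, p = 0.3714), so its level over all exons did not separate the genotype labels. This level rests on 107 to 159 reads in the METTL3-HKD livers and 95 to 133 in the METTL3-Flox livers, and does not single out exon 4. The paper reports a specific loss of METTL3 in the liver tissue of METTL3-HKD mice, which this level does not test. All 8 hepatocyte markers were detected, and their summed level was 22662 to 33356 FPKM in the METTL3-HKD livers and 29678 to 34270 FPKM in the METTL3-Flox livers. The 16645 genes whose mean over the 8 livers reached 0.1 FPKM were compared on log2(FPKM + 0.1) with limma, a linear model with moderated variances, and a gene was called at a Benjamini-Hochberg adjusted p under 0.05. Nothing in the labels says more of the replicates than that they are separate mice.

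All 10 genes passed the filter on low levels, Slc7a11 only through the METTL3-HKD livers, where it was high. Compared with METTL3-Flox mice, Slc7a11, Srxn1, Hmox1, Gclc, Txnrd1 and Nfe2l2 rose in METTL3-HKD mice, and Gclm and Keap1 fell. Gpx4 and Nqo1 were not called. Thus 6 of 10 were called higher, beside 9.05% of all genes tested, and 2 of 10 were called lower, beside 6.63%. With the further threshold of the study's DEGs, which asks that the log2 fold change also reach 1 upward or downward, Slc7a11, Srxn1, Hmox1 and Gclc remained, beside 4.7% of all genes, and neither of the lower genes did, beside 1.52%. The METTL3-HKD livers all lay above the METTL3-Flox livers for 6 genes, beside 12.7% of all genes, and all below for 2, beside 9.95%. The median log2 fold change was 0.72 over the 10 genes and -0.00 over all genes tested.

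**Figure D1:**
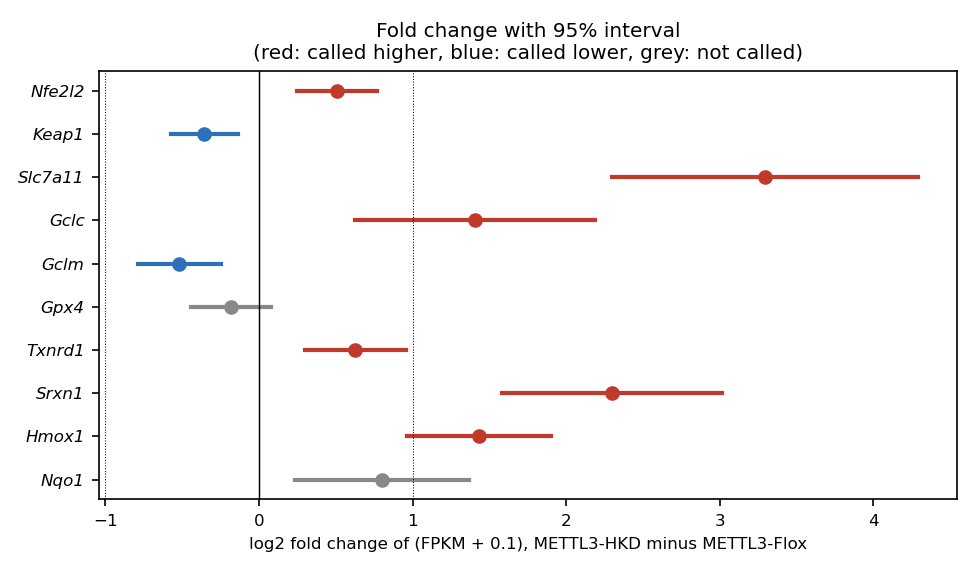
Each point is the log2 fold change of a gene on the log2(FPKM + 0.1) scale (x axis, METTL3-HKD minus METTL3-Flox), its line the 95% interval from limma, and dotted lines mark changes of 1. The point of Slc7a11 is farthest to the right at 3.30, and those of Gclm and Keap1 lie left of 0 at -0.52 and -0.35.

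The regulators moved in opposite directions. Nfe2l2 (chromosome 2, 75675513 to 75704641, minus strand, GRCm38) had 17.8, 18.3, 14.1 and 15.3 FPKM in the METTL3-HKD livers 1 to 4, against 9.88, 11.5, 11.9 and 12.6 FPKM in the METTL3-Flox livers 1 to 4. The groups did not overlap, and METTL3-HKD livers 1 and 2 were the highest. Nfe2l2 was higher by 0.51 on the log2 scale (standard error 0.116, adjusted p = 0.0228 from limma). Keap1 (chromosome 9, 21229730 to 21239361, minus strand) had 8.97, 10.7, 9.86 and 10.7 FPKM in the METTL3-HKD livers and 11.5, 13.6, 13.3 and 13.2 FPKM in the METTL3-Flox livers. These groups did not overlap either, although METTL3-Flox liver 1 came close to METTL3-HKD livers 2 and 4. Keap1 was lower, with a difference of -0.35 on the log2 scale (standard error 0.0956, adjusted p = 0.0384 from limma). Keap1 shares 510 exon bases with Gm16754 on the other strand, which had a mean of 0.177 FPKM, so its reads could not be told apart where counting ignored strand.
Both calls were close to the threshold. Without METTL3-HKD liver 1 or 2 or METTL3-Flox liver 2 or 3, the adjusted p of Nfe2l2 from limma was 0.0631, 0.0607, 0.0521 and 0.0559. For Keap1, only the omission of METTL3-Flox liver 1 kept the call, and the adjusted p from limma reached 0.0974 without METTL3-HKD liver 1.
Each level per length can be set against the other within a liver, which leaves out the scaling between libraries. The ratio of Nfe2l2 to Keap1 was 1.98, 1.71, 1.43 and 1.42 in METTL3-HKD livers 1 to 4, and 0.862, 0.842, 0.894 and 0.959 in METTL3-Flox livers 1 to 4. Nfe2l2 thus had the higher level of the pair in every METTL3-HKD liver and the lower in every METTL3-Flox liver. The ratios were formed after the levels had been seen and are given as a description.

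Of 16 other tested regulators of NRF2, 5 were called higher and 11 were not called, with a median log2 fold change of 0.23. This count and those of the pathway lists below stand beside 9.05% of all genes tested called higher and 6.63% called lower. Over the 134 tested genes of the 9 lists, the shares were 15.7% and 13.4%. In lists of this size a few calls cannot be told from the shares of all genes and are no result about a list. Maff, a small MAF partner, rose from 0.983 ± 0.533 to 16.9 ± 6.13 FPKM (SD, n = 4 each) or by 4.06 on the log2 scale (adjusted p = 0.00190 from limma). Cul3, the scaffold of the ligase that KEAP1 serves, rose by 0.34 on the log2 scale (adjusted p = 0.0302 from limma). Mafk, another small MAF, and Bach2, a relative of the repressor BACH1, were higher by 0.84 and 0.80 (adjusted p = 0.0386 and 0.0351 from limma). Maff was called in 19 of 19 alternatives, but Cul3 in 11 of 19, Mafk in 10 of 19 and Bach2 in 8 of 18. The third small MAF, Mafg, was at -0.39 on the log2 scale and missed the threshold (adjusted p = 0.0607 from limma), although its groups did not overlap. Bach1, a repressor at the same elements, had 10.5 FPKM against 7.64 FPKM with overlapping groups (adjusted p = 0.197 from limma).

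**Figure D2:**
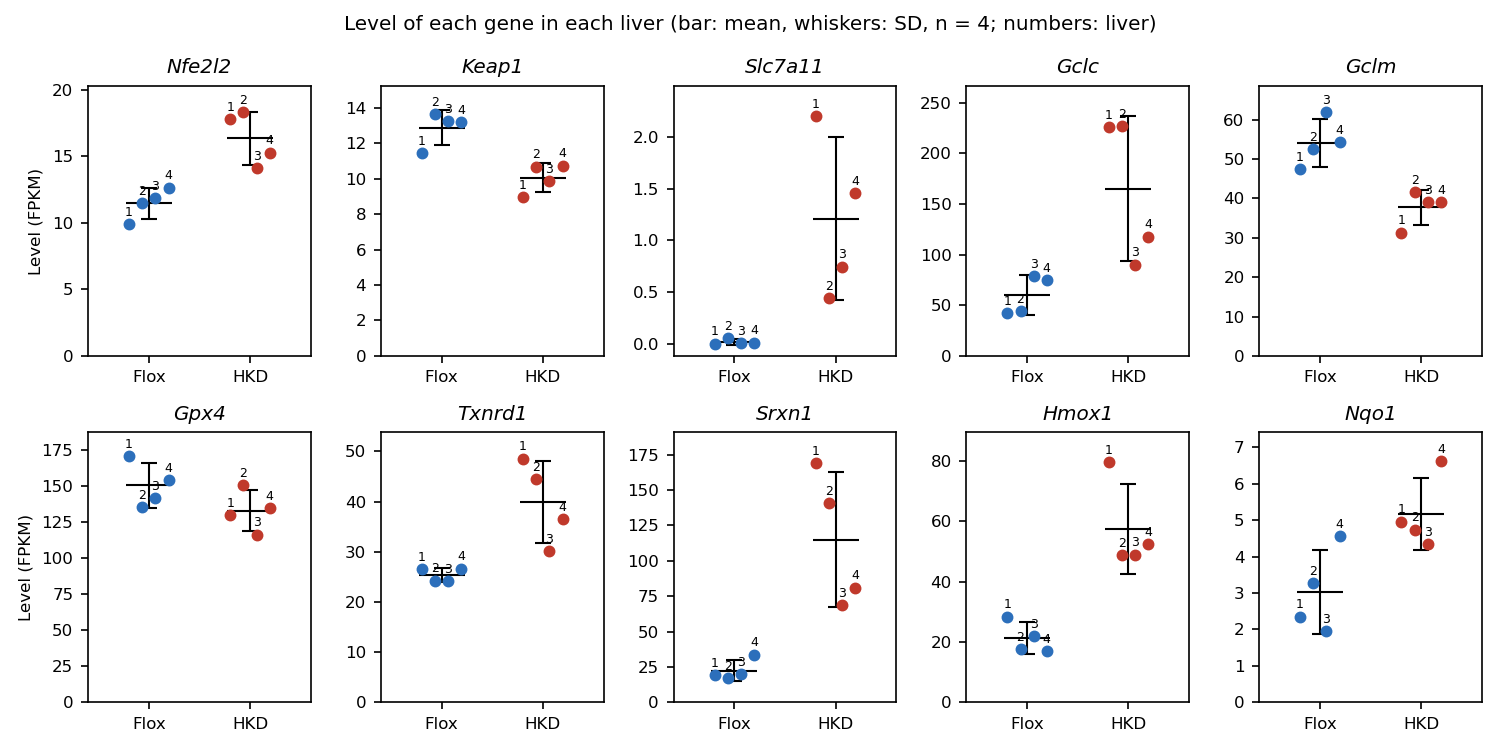
Each panel shows the level of a gene in FPKM (y axis) in the 4 METTL3-Flox (blue) and 4 METTL3-HKD (red) livers, numbered by liver, with the mean as a bar and the SD as whiskers. The colours overlap in height only for Gpx4 and Nqo1, and METTL3-HKD livers 1 and 2 stand above livers 3 and 4 for Nfe2l2, Gclc, Txnrd1 and Srxn1.

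Glutathione is made from cysteine, and the cell takes up its oxidised form, cystine, through the exchanger of which Slc7a11 encodes the transport subunit. Slc7a11 (chromosome 3, 49892526 to 50443614, minus strand) had 2.20, 0.439, 0.744 and 1.46 FPKM in the METTL3-HKD livers 1 to 4. In METTL3-Flox livers 1 to 4 it had 0, 0.0533, 0.00472 and 0.00892 FPKM. The METTL3-HKD values rest on 615, 113, 187 and 377 reads and the METTL3-Flox values on 0, 12, 1 and 2 reads. A count of 0 in METTL3-Flox liver 1 allows up to 0.0152 FPKM, taken as 3 reads and covering counting error only. The lowest METTL3-HKD liver therefore lay well above the highest METTL3-Flox liver, and METTL3-HKD livers differed among themselves with a SD of 0.784 around a mean of 1.21 FPKM (n = 4). Slc7a11 rose by 3.30 on the log2(FPKM + 0.1) scale (standard error 0.440, adjusted p = 0.00412 from limma), a size that the pseudocount limits, since voom on the rebuilt reads gave 6.61. The mean of 0.0167 FPKM in the METTL3-Flox livers was under the filter, so a gene tested at this level had to differ, and the values per liver are the description to read. Without any minimum, Slc7a11 was still called. Slc3a2, the heavy chain that carries the transporter to the membrane, was called higher as well, at 25.5 ± 5.01 against 12.6 ± 2.29 FPKM (SD, n = 4 each, adjusted p = 0.0108 from limma). In level per length, Slc7a11 stayed far below Slc3a2 in both groups.

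Glutamate-cysteine ligase, the rate-limiting enzyme of glutathione synthesis, is a dimer of a catalytic subunit (Gclc) and a modifier subunit (Gclm), and these genes changed in opposite directions. Gclc (chromosome 9, 77754535 to 77794485, plus strand) had 226, 227, 89.9 and 118 FPKM in the METTL3-HKD livers 1 to 4, against 42.1, 44.5, 78.9 and 74.5 FPKM in the METTL3-Flox livers 1 to 4. The groups did not overlap, but METTL3-HKD liver 3, at 89.9 FPKM, was close to METTL3-Flox liver 3, at 78.9 FPKM. The difference on the log2 scale was 1.40 (standard error 0.345, adjusted p = 0.0287 from limma). Gclm (chromosome 3, 122245557 to 122270732, plus strand) had 31.3, 41.6, 39.1 and 39.0 FPKM in the METTL3-HKD livers and 47.5, 52.5, 61.9 and 54.3 FPKM in the METTL3-Flox livers. Every METTL3-HKD liver was below every METTL3-Flox liver, and the log2 difference was -0.52 (standard error 0.119, adjusted p = 0.0229 from limma). Gclm shares exon bases with Gm17494 (296 bases, other strand, mean 0.0454 FPKM) and Gm6061 (244 bases, listed at 0 FPKM).
The call of Gclc was lost without METTL3-HKD liver 1 or 2 or METTL3-Flox liver 1 or 2, with adjusted p = 0.0753, 0.0693, 0.0601 and 0.0741 from limma. That of Gclm was lost without METTL3-HKD liver 1 or METTL3-Flox liver 3 or 4, with adjusted p = 0.0501, 0.0649 and 0.0559 from limma.
In level per length, the catalytic and modifier genes were near each other in METTL3-Flox livers 1 to 4, with ratios of Gclc to Gclm of 0.888, 0.847, 1.27 and 1.37. In METTL3-HKD livers 1 to 4 the ratios were 7.23, 5.45, 2.30 and 3.02. The lowest METTL3-HKD ratio was above the highest METTL3-Flox ratio, and the spread among METTL3-HKD livers (mean 4.50, SD 2.26) was wider than among METTL3-Flox livers (mean 1.10, SD 0.267).

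**Figure D3:**
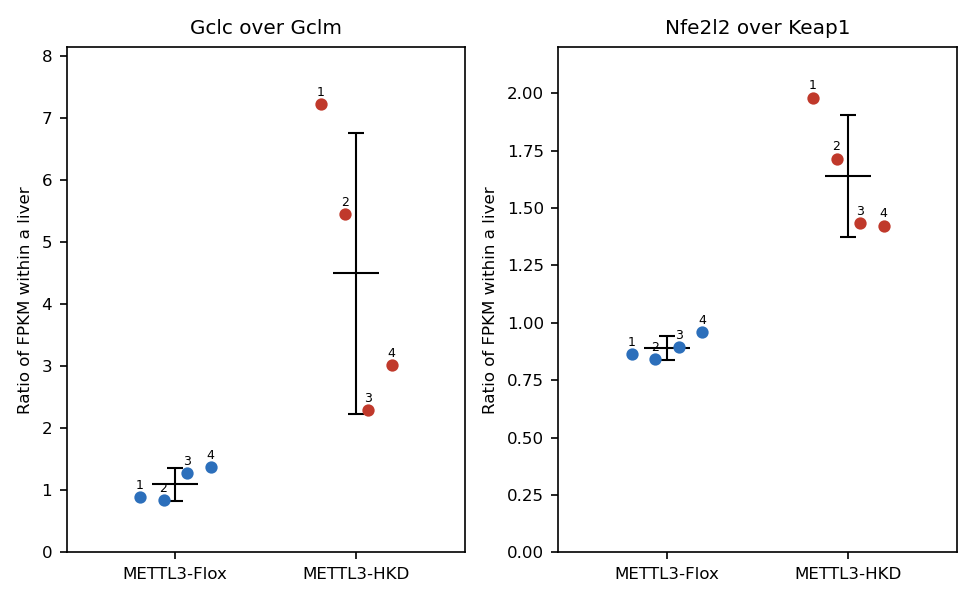
The y axis is the ratio of 2 levels in FPKM within the same liver, Gclc over Gclm on the left and Nfe2l2 over Keap1 on the right, with livers as numbered points, the mean as a bar and the SD as whiskers (n = 4). METTL3-HKD livers span 2.30 to 7.23 and 1.42 to 1.98, above the METTL3-Flox maxima of 1.37 and 0.959.

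The other genes of glutathione synthesis and use were mixed. Of 19 tested, 4 were called higher, 3 lower and 12 were not called, and the median log2 fold change was -0.02. Beside Slc3a2, the higher genes were Glrx (glutaredoxin, 0.72 on the log2 scale, adjusted p = 0.0145 from limma), Gsr (glutathione reductase, 0.69, adjusted p = 0.0364) and Ggct (0.76, adjusted p = 0.0472). Glrx was called in 18 of 19 alternatives, Gsr in 10 and Ggct in 7. The lower genes were Cth and Cbs, which make cysteine from methionine inside the cell, and Chac2, which degrades glutathione. Cth fell from 58.8 ± 3.77 to 35.1 ± 7.09 FPKM and Cbs from 109 ± 35.7 to 60.9 ± 2.51 FPKM (SD, n = 4 each, adjusted p = 0.0117 and 0.0340 from limma), and they were called in 19 and 9 of 19 alternatives. Cystine import and cysteine synthesis genes thus differed in the sign of their change. Gss, which completes glutathione, was at -0.14 on the log2 scale (adjusted p = 0.404 from limma).

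Gpx4 encodes the selenoenzyme that reduces lipid hydroperoxides with glutathione and is the central brake on ferroptosis. Gpx4 (chromosome 10, 80047166 to 80056439, plus strand) had 129.6, 151, 116 and 134 FPKM in the METTL3-HKD livers 1 to 4, against 170.4, 135, 142 and 154 FPKM in the METTL3-Flox livers 1 to 4. The groups overlapped (exact permutation test, p = 0.1429). On the log2 scale Gpx4 differed by -0.18, with a 95% interval from -0.44 to 0.08 (adjusted p = 0.313 from limma), so a change of 1 upward or downward lies outside the interval. Its direction was not settled, since scaling to the reads on genes gave 0.04. In METTL3-Flox livers, Gpx4 had the highest mean level of the 10 genes at 150.4 FPKM. In METTL3-HKD livers Gclc had the highest mean, 165 ± 71.7 FPKM, against 133 ± 14.2 FPKM for Gpx4 (SD, n = 4), within the spread of the Gclc values.
Of 15 other tested genes of ferroptosis defence, Slc3a2 was called higher and Cisd1 and Slc40a1 were called lower, while 12 were not called. Slc40a1, the iron exporter ferroportin, fell from 18.3 ± 3.46 to 11.6 ± 1.25 FPKM (SD, n = 4 each, adjusted p = 0.0188 from limma). Aifm2, which regenerates ubiquinol independently of GPX4, was at -0.34 on the log2 scale (adjusted p = 0.112 from limma).
Of 19 genes that promote or mark ferroptosis, 4 were called higher and 15 were not called, with a median log2 fold change of 0.38. Ptgs2, an inducible cyclooxygenase and a common marker of ferroptosis that inflammation also induces, had 8.02, 3.18, 0.907 and 4.96 FPKM in the METTL3-HKD livers 1 to 4, and at most 0.0541 FPKM in a METTL3-Flox liver, where it had 0 to 4 reads. Ptgs2 was higher by 4.89 on the log2(FPKM + 0.1) scale (adjusted p = 0.00281 from limma), a size set by the pseudocount, as the alternatives gave 2.16 to 7.67. Like Slc7a11, it passed the filter only through the METTL3-HKD livers and was still called without a minimum. Sat1, a polyamine catabolic enzyme, Alox5, a leukocyte lipoxygenase, and Por, the cytochrome P450 reductase, were higher by 1.13, 1.72 and 0.77 on the log2 scale (adjusted p = 0.00529, 0.0206 and 0.0434 from limma). Sat1 was called in 19 of 19 alternatives, Alox5 in 14 of 18, with values from 0.43 to 2.91, and Por in 8 of 19. Alox5 also passed the filter only through the METTL3-HKD livers. Acsl4, which loads polyunsaturated fatty acids into membrane lipids, had 13.4 against 9.64 FPKM with overlapping groups (adjusted p = 0.0741 from limma).

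GPX4 and TXNRD1 both need selenocysteine. Among 20 tested genes of selenocysteine synthesis and selenoproteins, 5 were called lower, 1 was called higher and 14 were not called, with a median log2 fold change of -0.27. Sephs2, which makes the selenium donor, fell from 226 ± 17.8 to 118 ± 18.8 FPKM (SD, n = 4 each, log2 fold change -0.96, adjusted p = 0.00470 from limma). Msrb1, a selenoprotein that repairs oxidised methionine, fell from 295 ± 39.1 to 172 ± 9.28 FPKM (adjusted p = 0.00715 from limma). Scly and Selenow were lower by -0.50 and -0.57 on the log2 scale (adjusted p = 0.0209 and 0.0224 from limma). The gene called higher was Selenon, at 3.42 ± 2.05 against 1.09 ± 0.149 FPKM (SD, n = 4 each, adjusted p = 0.0230 from limma).

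The thioredoxin arm was represented by Txnrd1 and Srxn1. Txnrd1 (chromosome 10, 82833951 to 82897712, plus strand), the cytosolic thioredoxin reductase, had 48.6, 44.5, 30.1 and 36.5 FPKM in the METTL3-HKD livers 1 to 4, against 26.5, 24.2, 24.1 and 26.7 FPKM in the METTL3-Flox livers 1 to 4. Every METTL3-HKD liver was above the METTL3-Flox livers, which differed little among themselves. Txnrd1 rose by 0.63 on the log2 scale (standard error 0.145, adjusted p = 0.0238 from limma). The call was lost without METTL3-HKD liver 1 or 2 or METTL3-Flox liver 2 or 3, with adjusted p = 0.0550, 0.0623, 0.0593 and 0.0671 from limma. Srxn1 (chromosome 2, 152105516 to 152111376, plus strand), which encodes sulfiredoxin and restores overoxidised peroxiredoxins, had 169, 141, 68.8 and 80.9 FPKM in the METTL3-HKD livers 1 to 4. It had 19.2, 16.9, 20.2 and 33.8 FPKM in the METTL3-Flox livers 1 to 4. The means were 5.10-fold apart, and the nearest livers of the groups were at 68.8 and 33.8 FPKM. Srxn1 rose by 2.30 on the log2 scale (standard error 0.317, adjusted p = 0.00451 from limma), and the call held with each liver left out in turn, at 2.08 to 2.51.
Of 16 tested genes of the thioredoxin and peroxiredoxin systems, 1 was called higher, 2 lower and 13 were not called, with a median log2 fold change of -0.21. Txn1, the substrate of TXNRD1, had 168 and 167 FPKM, and Prdx1, a substrate of sulfiredoxin, had 341 and 344 FPKM (adjusted p = 0.922 and 1.00 from limma). Sesn2, a stress-induced sestrin, rose from 2.98 ± 0.877 to 5.96 ± 1.26 FPKM while its relative Sesn1 fell from 3.62 ± 0.353 to 2.37 ± 0.462 FPKM (SD, n = 4 each, adjusted p = 0.0205 and 0.0294 from limma), called in 14 and 11 of 19 alternatives.

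The sequence before a start site is shown for members that moved, because NRF2 with a small MAF binds the antioxidant response element, whose core was searched as TGACNNNGC on both strands. RefSeq promoter windows of GRCm38.p6, from 250 bases before to 50 bases after a start, were matched for 8 of the 10 genes, and Gclc and Hmox1 were not matched. The core was found for 4 of these 8 genes (Srxn1, Txnrd1, Nfe2l2 and Gclm), and in 14% of all 27025 genes with a window. These include Gclm, which was called lower. The AP-1 element TGANTCA, which can overlap the core, was found for Srxn1 alone among the 8 and in 8.97% of all genes. The related letters TGAGNNNGC, a search added after the data were seen, were found for Srxn1 and Slc7a11, and in 19.8% of all genes. The 250 bases before the Srxn1 start (chr2:152105274-152105523, plus strand) hold TGAGTCA in 2 places, 102 and 45 bases before the start, and the latter runs on into GC. Capitals mark matches to TGANTCA and TGAGNNNGC. The TGACNNNGC core of Srxn1 is not among the bases shown, since it lies 28 bases after the start, on the opposite strand.
Srxn1: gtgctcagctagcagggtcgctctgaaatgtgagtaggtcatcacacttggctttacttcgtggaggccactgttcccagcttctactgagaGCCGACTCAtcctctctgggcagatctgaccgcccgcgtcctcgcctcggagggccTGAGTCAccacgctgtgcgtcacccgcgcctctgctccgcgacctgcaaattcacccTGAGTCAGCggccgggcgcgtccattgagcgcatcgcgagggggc
The matches in other members are shown with their neighbouring bases on the strand of the gene, with the match in capitals. The core reads on the opposite strand in Txnrd1 (chr10:82859104-82859133, plus strand, 92 bases before the second listed start) and in Gclm (chr3:122245413-122245442, plus strand, 134 bases before the start). It reads on the strand of the gene in Nfe2l2 (chr2:75704884-75704913, minus strand, 240 bases before the start). In Slc7a11 (chr3:50443691-50443720, minus strand, 97 bases before the start), the capitals are TGAGNNNGC on the opposite strand.
Txnrd1: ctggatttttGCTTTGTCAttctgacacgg
Gclm: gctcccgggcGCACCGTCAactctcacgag
Nfe2l2: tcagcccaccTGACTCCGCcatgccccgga
Slc7a11: taatgttggcGCTTTCTCAagctggagttt
Among the matched members, Gpx4, Nqo1 and Keap1 had none of these letters in their windows, and the windows say nothing of sites farther away.

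Hmox1 encodes the inducible enzyme that opens the haem ring and releases iron, carbon monoxide and biliverdin. Hmox1 (chromosome 8, 75093621 to 75100589, plus strand) had 79.6, 48.8, 48.9 and 52.5 FPKM in the METTL3-HKD livers 1 to 4, against 28.4, 17.6, 21.9 and 17.0 FPKM in the METTL3-Flox livers 1 to 4. METTL3-HKD liver 1 stood apart at the top, and the other METTL3-HKD livers lay close together, all above the METTL3-Flox livers. Hmox1 rose by 1.43 on the log2 scale (standard error 0.206, adjusted p = 0.00529 from limma), and by 1.27 without METTL3-HKD liver 1.
Of 13 tested genes of haem synthesis and breakdown, 5 were called lower and 8 were not called, with a median log2 fold change of -0.21. The called genes encode enzymes of haem synthesis. Among them, Alad fell from 52.5 ± 1.42 to 37.1 ± 4.99 FPKM (SD, n = 4 each, adjusted p = 0.0160 from limma), and Fech and Ppox had log2 fold changes of -0.38 and -0.47 (adjusted p = 0.0343 and 0.0407 from limma). Alad was called in 17 of 19 alternatives, Fech in 9 and Ppox in 6. Fth1, the ferritin heavy chain that stores the released iron, had 2597 against 1789 FPKM and missed the threshold (adjusted p = 0.0943 from limma), although its groups did not overlap.

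Nqo1, a quinone reductase and a classical NRF2 target, was low in these livers. Nqo1 (chromosome 8, 107388225 to 107403206, minus strand) had 4.96, 4.74, 4.35 and 6.62 FPKM in the METTL3-HKD livers 1 to 4, against 2.36, 3.27, 1.95 and 4.56 FPKM in the METTL3-Flox livers 1 to 4. METTL3-Flox liver 4 lay above METTL3-HKD liver 3, and the groups overlapped there alone (exact permutation test, p = 0.0571). The log2 fold change was 0.80 with a 95% interval from 0.24 to 1.37, and the adjusted p of 0.0597 from limma missed the threshold. It passed under 5 of 19 alternatives, among them scaling to the reads on genes (adjusted p = 0.0354 from limma).
Of 25 other tested NRF2 targets, 7 were called higher and 18 were not called, with a median log2 fold change of 0.12. They included the glutathione transferases Gsta4 and Gsta2, at 24.8 ± 5.82 against 8.93 ± 2.11 FPKM and 14.4 ± 3.40 against 3.72 ± 1.57 FPKM (SD, n = 4 each, adjusted p = 0.00523 and 0.00724 from limma). Gsta2 and Gsta1 are near-identical, so the split of reads between them is uncertain. Pgd, of the pentose phosphate pathway that supplies NADPH, rose from 6.77 ± 0.888 to 14.0 ± 2.94 FPKM (adjusted p = 0.00761 from limma), and Cbr3, a carbonyl reductase, rose by 1.35 on the log2 scale (adjusted p = 0.0188 from limma). Me1 and Gstm3 had log2 fold changes of -0.03 and 0.07, neither past the threshold of limma.
Of the 5 genes that remove superoxide and hydrogen peroxide, Cat and Ccs were called lower. Cat, catalase, had 275, 414, 449 and 414 FPKM in the METTL3-HKD livers 1 to 4, against 492, 707, 666 and 643 FPKM in the METTL3-Flox livers 1 to 4 (adjusted p = 0.0372 from limma). The groups did not overlap, and Cat was called in 9 of 19 alternatives. Sod1 and Sod2 had log2 fold changes of -0.29 and 0.05 (adjusted p = 0.107 and 0.772 from limma).

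**Figure D4:**
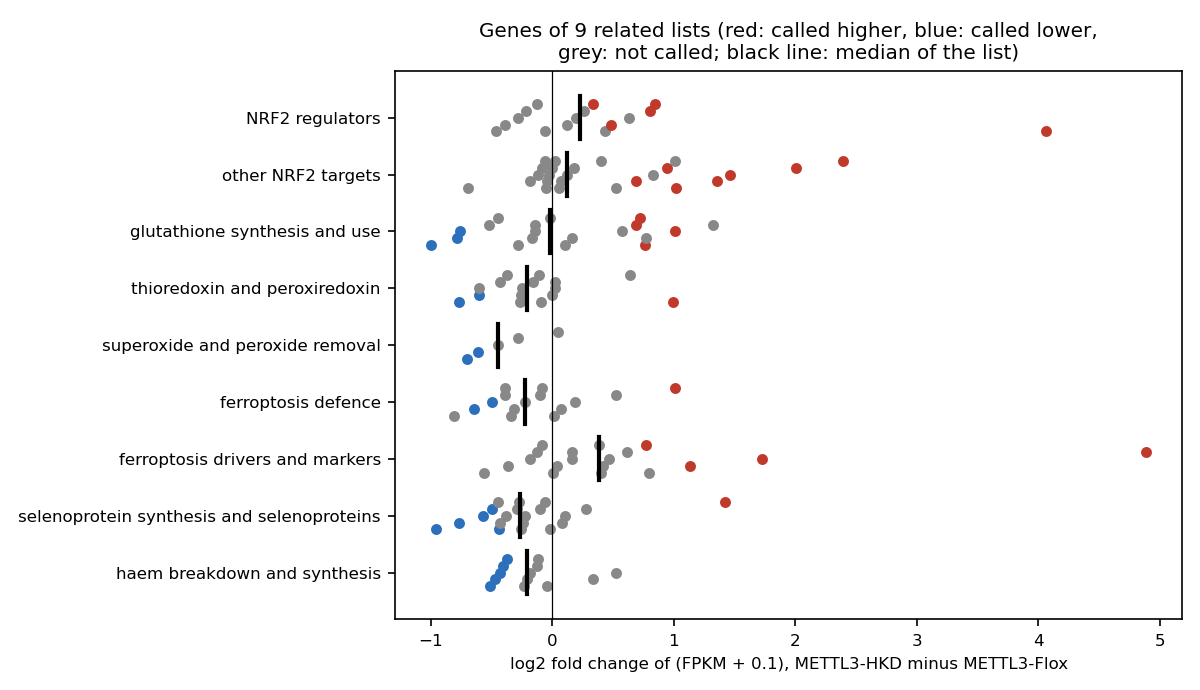
Each point is a tested gene of 9 related lists, placed by its log2 fold change on the log2(FPKM + 0.1) scale (x axis, METTL3-HKD minus METTL3-Flox), and black lines mark the list medians. The points of Maff (4.06) and Ptgs2 (4.89) lie far to the right, and the haem and selenoprotein lists have their called genes mostly left of 0.

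The smaller changes depend on how libraries are scaled. When each liver was scaled to its reads on genes, the median of all genes on the log2 scale shifted from -0.00 to 0.20, and the share of called genes that were higher moved from 57.7% to 86.1%. Gclm and Keap1 kept their sign but lost their calls, at -0.30 and -0.14 (adjusted p = 0.170 and 0.476 from limma), and their groups then overlapped. The medians of the thioredoxin and haem lists turned to 0.00 and 0.01 and that of the glutathione list to 0.18. The lower calls of the haem, superoxide and ferroptosis defence lists were lost, the haem list then had 2 genes called higher, and the selenoprotein list had 2 called lower. Of the lower genes named above, Sephs2, Msrb1, Cth and Chac2 kept their calls (adjusted p = 0.00367, 0.00922, 0.0202 and 0.0203 from limma), while Cat, Cbs, Sesn1, Selenow and Scly did not (0.104, 0.0580, 0.113, 0.133 and 0.0726). Relative to the median of all genes, Gclm and Keap1 remained lower, but this comparison takes the rescaling out again and so adds no support. The ratios within a liver do not depend on this scaling.

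METTL3-HKD livers were not alike. Livers 1 and 2 were the highest for 4 of the 10 genes (Nfe2l2, Gclc, Txnrd1 and Srxn1), and for Slc7a11 and Hmox1 livers 1 and 4 were the highest. Summed hepatocyte markers were 22662 and 24148 FPKM in METTL3-HKD livers 1 and 2, against 31271 and 33356 FPKM in METTL3-HKD livers 3 and 4. Alb made up most of each sum, at 15090 and 15929 against 19902 and 22088 FPKM. Apoa1, Ttr, Serpina1a, Tat and Cps1 were also lower in livers 1 and 2. Hnf4a (119 and 109 against 114 and 103 FPKM) and Cyp2e1 (1271 and 1681 against 1476 and 1477 FPKM) overlapped. Summed Kupffer cell markers were 123 and 140 against 62.6 and 64.1 FPKM in the same livers. Whether these sums bear on the levels of the 10 genes was not tested. In METTL3-HKD livers 1 to 4 the library size that the authors used was 1.17, 1.16, 1.02 and 1.00819 times the reads on genes. In METTL3-Flox livers 1 to 4 it was 0.840, 0.936, 0.958 and 1.00806 times. This scaling thus differed between the groups, although liver 4 of each group was nearly the same. It is the scaling under which Gclm and Keap1 were called lower. Without METTL3-HKD livers 1 and 2, an alternative added after the data were seen, Slc7a11, Srxn1 and Hmox1 were still called (adjusted p = 0.0168, 0.0245 and 0.0315 from limma). Gclc, Nfe2l2 and Txnrd1 then had log2 fold changes of 0.84, 0.36 and 0.39 (adjusted p = 0.181, 0.174 and 0.128 from limma).

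**Figure D5:**
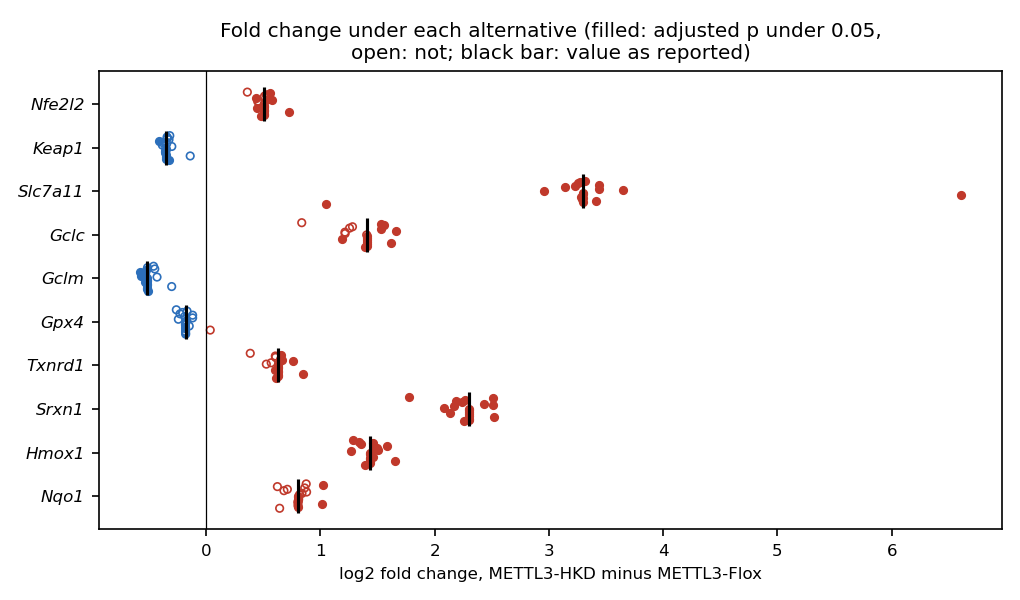
For each gene, points give the log2 fold change (x axis, METTL3-HKD minus METTL3-Flox) under each alternative processing or with livers left out, filled where the adjusted p was under 0.05, and the black bar gives the reported value. All points of Slc7a11, Srxn1 and Hmox1 are filled, Keap1 has 11 open points of 19, and the point of Slc7a11 at 6.61 is voom.

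Markers of other cell types moved with the same groups. Of 7 tested neutrophil markers, 6 were called higher. Among these, Ly6g had a mean of 0.0374 FPKM in the METTL3-Flox livers and passed the filter only through the METTL3-HKD livers, where it was high. The summed level of all 8 neutrophil markers was 327 to 1596 FPKM in the METTL3-HKD livers and 12.7 to 44.1 FPKM in the METTL3-Flox livers. S100a9 had 403 ± 315 against 13.9 ± 5.71 FPKM (SD, n = 4 each). METTL3-HKD liver 1, the highest for Hmox1, Srxn1, Txnrd1 and Slc7a11, also had the highest neutrophil sum. METTL3-HKD liver 2, the highest for Gclc and Nfe2l2, had a neutrophil sum of 376 FPKM, and METTL3-HKD liver 4 had 540 FPKM. The order of 4 livers is given as a description only. Of 6 monocyte or macrophage markers, 3 were called higher (sums of 205 to 577 against 120 to 132 FPKM), while 4 of 6 Kupffer cell markers were called lower (62.6 to 140 against 140 to 347 FPKM), calls that scaling to the reads on genes removed. Kupffer cells and other macrophages are known sources of Hmox1. Haemoglobin genes were higher as well, with 4 of 5 erythroid markers called and sums of 185 to 597 against 48.2 to 108 FPKM, and their near-identical copies make the split between them uncertain. The remaining erythroid marker, Alas2, was not called, with 16.1 ± 8.24 against 28.9 ± 6.76 FPKM (SD, n = 4 each, log2 fold change -0.98, adjusted p = 0.103 from limma). Cholangiocyte markers gave 4 of 5 higher, and stellate and sinusoidal endothelial cells had at most 1 of 6 markers called in either direction. Spp1 was on both the cholangiocyte and the monocyte or macrophage list and is counted as called in each. At 109 to 355 FPKM in the METTL3-HKD livers, it made up a large part of the monocyte or macrophage sums. Among hepatocyte markers, Hnf4a was called lower (log2 fold change -0.48, adjusted p = 0.0187 from limma) and the other 7 were not called. Scaled to the reads on genes, Hnf4a was at -0.26 and was not called (adjusted p = 0.191 from limma). No marker list had a gene at 0 in every liver. The part of these cells in the changes of the 10 genes was not tested, and in whole liver a change in the number of cells of a type and a change in RNA per cell cannot be told apart.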

How the data were processed

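The authors deposited one table of FPKM per gene and liver, with the gene length used. The genome build is GRCm38 (mm10) per the labels. The aligner, the counting and the strand setting are not given in the sources used here. FPKM times gene length gave whole reads (within 0.01) for 100% of the non-zero values once divided by the value of 1 read in each liver. Groups and replicate numbers follow the sample labels. Genes reaching a mean of 0.1 FPKM were tested with limma 3.58.1 in R 4.3.3 (log2(FPKM + 0.1), mean-variance trend, two-sided, Benjamini-Hochberg over 16645 genes), and single genes with two-sided exact permutation tests (scipy 1.17.1), for which 0.0286 is the smallest p with 4 against 4 livers. Intervals and read floors cover counting error or the spread between these livers only. The fit was run on simulated counts only to check that it works. These had the same spread beyond counting error in every gene, so they give no support to the calls reported here.

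The genes and lists were chosen with earlier results of these data known. Named genes are the 10 members, Mettl3, up to 4 called genes per direction of each pathway list, up to 2 called markers per cell type, and a few genes that missed the threshold, chosen after their values were seen. A result that the rule names is not reported here. A spreadsheet date stood in place of 27 symbols, none of them named here. Alternatives changed the pseudocount, the filter, the scaling, the variance model, the genes tested, the replicate block and the livers used.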

Additional observations from a re-analysis of the deposited data

Results flagged for a closer look

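A liver was noted where its gap to the nearest liver of its group, divided by the range of the group, exceeded Dixon's 95% critical value, which chance alone gives in about 1 of 20 groups. Of 114 groups of 4 values, from 57 named genes, 9 did so. Among the 10 genes these were Hmox1 in METTL3-HKD liver 1, at 79.58 FPKM against 48.83 to 52.51 FPKM in the other 3, and Slc7a11 in METTL3-Flox liver 2, at 0.05334 FPKM against 0 to 0.008924 FPKM. METTL3-Flox liver 2 was also high for Hba-a1 (22.26 FPKM against 8.186 to 9.235), Ccr2 (0.6958 FPKM against 0.253 to 0.3216) and Cul3 (12.95 FPKM against 11.16 to 11.46), and low for Slc3a2 (9.189 FPKM against 13.40 to 14.21). Cbr3 was high in METTL3-Flox liver 4 (1.734 FPKM against 0.7856 to 0.9442), Vsig4 was high in METTL3-Flox liver 1 (38.79 FPKM against 20.60 to 22.38), and Sesn1 was low there (3.093 FPKM against 3.760 to 3.849).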

How the results depend on the processing

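Each result was recomputed under 18 other settings chosen at the outset and 1 added after the data were seen. Among them, median-of-ratios scaling gave the same factor of 1.006 in every liver, so it could change almost nothing. It is still counted in each number of alternatives passed. Slc7a11, Srxn1 and Hmox1 stayed past the threshold of limma in every alternative in which they were tested, with log2 fold changes of 1.05 to 6.61, 1.78 to 2.52 and 1.27 to 1.65. Slc7a11 was not tested with a minimum of 1 FPKM. Gclc, Nfe2l2, Txnrd1, Gclm and Keap1 lost the threshold in 6, 6, 5, 5 and 11 of 19 alternatives and kept their sign. Gpx4 changed sign, to 0.035, when scaled to reads on genes. The count of members called lower (2) was 0 with that scaling, where 0 also had an unadjusted p under 0.05 with limma, 1 without the mean-variance trend and 1 with the replicate block. Without METTL3-HKD livers 1 and 2, 3 members were called higher and 0 lower by limma, although 2 were lower at an unadjusted p under 0.05. With 1 liver left out, 3 to 7 members were called higher and 0 to 2 lower. The number of members whose groups did not overlap was 6 to 9 over the alternatives. The share of all genes without overlap was not computed for these settings. Groups of fewer livers also fail to overlap more often by chance, so these counts are not a result about the members.

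Counts over all genes moved too. Calls at both thresholds (782 higher, 253 lower) were 317 and 88 with a pseudocount of 1 FPKM, 450 higher with a minimum of 1 FPKM, 163 lower without a minimum and 133 lower when scaled to reads on genes. Calls on the adjusted p alone (1506 higher, 1104 lower) were 682 lower without a minimum, 2309 and 374 when scaled to reads on genes, and 971 and 645 with the replicate block. Without METTL3-HKD livers 1 and 2 these were 321 and 195, and 258 and 98 at both thresholds. With 1 liver left out they were 747 to 1659 and 355 to 1148, and 492 to 960 and 94 to 341 at both thresholds. Over the pathway lists, 21 genes were called higher and 18 lower, with 13 higher without a minimum, 13 higher without the trend, 4 lower when scaled to reads on genes, 4 and 4 without METTL3-HKD livers 1 and 2, and 9 to 22 and 7 to 19 with 1 liver left out. The core with a further A at its end was found for 1 of the 8 matched members in place of 4, and in 3.45% of all 27025 genes with a window. Fewer livers lower the power of the fit. The cause of the other shifts was not tested.

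Whether the replicate numbers pair the livers is not stated in the labels. Deviations from the group mean correlated between -0.0838 and 0.0711 in same-numbered livers, and 1 of 4 METTL3-HKD livers correlated best with its own number. With so few livers, centred within their groups, these correlations cannot decide whether a weak pairing exists. With the replicate block, the adjusted p of limma was 0.0859 for Gclc, 0.0662 for Nfe2l2, 0.0577 for Keap1 and 0.0327 for Nqo1.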
